A study of Homo sapiens with 12 samples.

Results

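MOLM-13 cells treated for 8 days with the menin inhibitor MI-3454 alone were compared with MOLM-13 cells treated for the same time with the solvent DMSO. The comparison uses 6 of the 12 libraries of the series, the 3 titled for MI-3454 alone and the 3 titled for DMSO, chosen by title, and covers every gene in the count files. MOLM-13 is an established line of acute monocytic leukaemia that carries an MLL-AF9 fusion gene and an internal tandem duplication of FLT3, so both are present in both groups. Cultures were seeded in triplicate in serum-containing medium, and total RNA was depleted of ribosomal RNA before library preparation. The other 6 libraries hold gilteritinib, an inhibitor of the FLT3 kinase, alone and combined with MI-3454, and only the 3 libraries with gilteritinib alone are used below. The treatment field spells the compound MI3454 in replicate 1 but gives other last digits in replicates 2 and 3, while all 3 titles name MI3454, and the titles were followed. The sources used here give no doses, and a single line at a single time was sampled.

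Menin, the product of MEN1, is a scaffold protein that binds the amino end of MLL1 (KMT2A), a histone H3 lysine 4 methyltransferase, and tethers it and the oncogenic MLL fusion proteins to chromatin. MLL fusions keep HOXA genes and their cofactors MEIS1 and PBX3 transcribed, and these factors hold leukaemic blasts at an immature stage. Inhibitors of the menin-MLL interaction displace the complex from such targets and are known to relieve the block in myeloid differentiation in leukaemias with an MLL fusion.

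The 6 libraries held 8983203 to 11147953 gene counts each. Markers of the line itself, such as PTPRC, CD33, SPI1, CEBPA and FLT3, were present in all 6 libraries, and the summed level of 8 such markers was 2820 to 3070 counts per 1000000 (CPM) with DMSO and 9970 to 11200 CPM with MI-3454, most of which was LYZ. Sums of the markers of T, B, erythroid, megakaryocytic, epithelial, fibroblast and endothelial cells stayed at or below 4.46 CPM in every library. The endothelial sum, which was almost all VWF while TEK was at 0, was 3.46 to 4.46 CPM with DMSO and 0.558 to 2.16 CPM with MI-3454. RN7SL1, a cytoplasmic RNA, took 4.27% of the counts of DMSO 2 and 4.56% of those of MI-3454 3 against 2.02% to 2.88% in the other 4 libraries. Across genes, DMSO 2 and MI-3454 3 departed from the means of their groups in like ways (r = 0.51, genes not being independent), and the counts of the lists below that move by over 1.5 times without both are given so.

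Of 13972 genes tested, 2658 (19%) were called changed at an adjusted p under 0.05. Higher levels with MI-3454 were called for 1407 genes (10.1%) and lower levels for 1251 (8.95%). At least 2-fold changes were found for 652 of the genes called higher and 520 of those called lower, and at least 4-fold changes for 247 and 171. The median log2 fold change over all genes tested was 0.003 and the quartiles were -0.222 and 0.28. For 4829 genes (34.6%) the CPM of the groups did not overlap, and for every called gene named with its values below the groups did not overlap either. In bulk RNA, fewer cells of a kind and less RNA per cell cannot be told apart, and this holds for each gene group below. Without DMSO 2 and MI-3454 3, 3945 genes were called, 1926 higher and 2019 lower, and without DMSO 1 the higher calls numbered 935. Among the circled genes, the plot of all tested genes shows NAV3 at the top, followed by CR1, CD14 and MNDA, and CD80 and ALDH1A3 at the bottom.

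**Figure D1:**
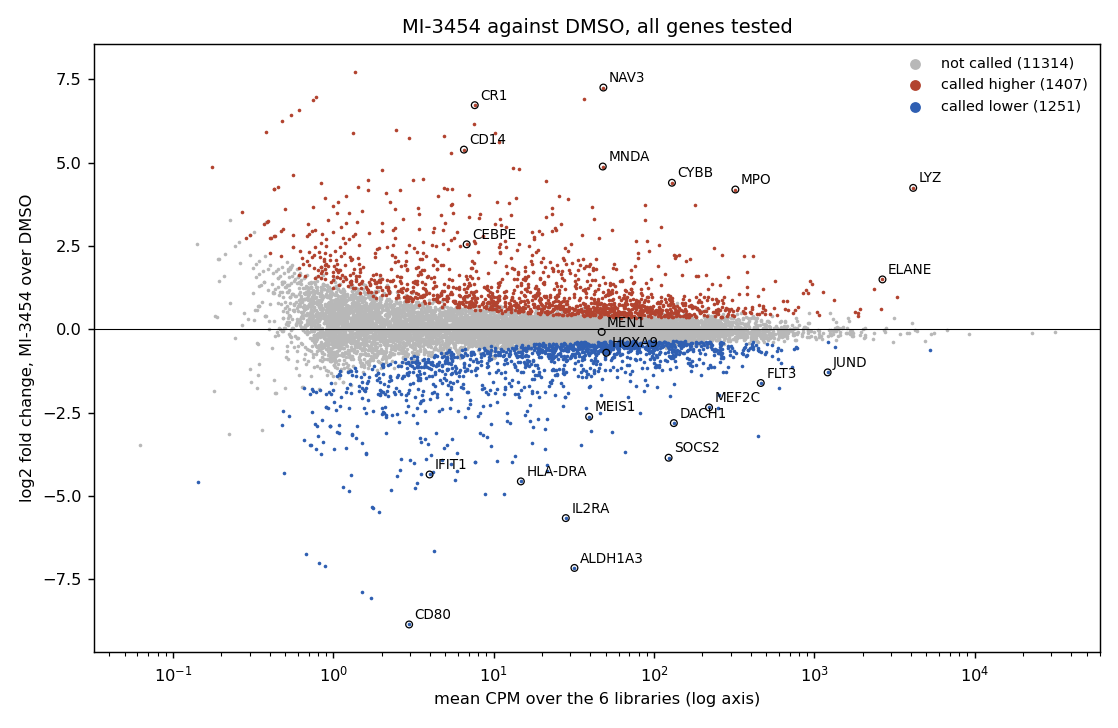
Log2 fold change (MI-3454 over DMSO) of the 13972 tested genes against their mean CPM over the 6 libraries (log axis), with 1407 genes called higher in red, 1251 called lower in blue and the others in grey. LYZ combined a high level with a large rise, and CD80 and ALDH1A3 had the largest falls among the circled genes.

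The gene for the drug's target was measured first. MEN1 was at 40.6, 57.8 and 46.9 CPM with DMSO and 46.1, 36.5 and 54.8 CPM with MI-3454. The groups overlapped, and the log2 fold change was -0.08 (adjusted p = 0.799). KMT2A, whose first part is also in the fusion, was at 46.8, 46.1 and 50.5 CPM with DMSO and 53.3, 64.6 and 56.5 CPM with MI-3454 (log2 fold change 0.28 ± 0.12 SE, adjusted p = 0.135), and among the alternatives tried it was called only in the fit of all 12 libraries (adjusted p = 0.0393). Counts over KMT2A do not separate the normal gene from the fusion. None of the 11 tested members of the menin-MLL1 complex was called by edgeR or by DESeq2, and 2 had an unadjusted p under 0.05, while 1 was called lower without DMSO 2 and MI-3454 3. Their log2 fold changes lay between -0.25 for WDR5, a core subunit of the methyltransferase, and 0.28 for KMT2A. MI-3454 acts on a protein interaction, so the level of MEN1 RNA is no check of the labels.

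Of 16 tested genes of DOT1L and the super elongation complex, which MLL-AF9 recruits, 3 were called lower and 1 higher. Over all genes tested, 8.95% were called lower and 10.1% higher, and the median log2 fold change of the 16 genes was -0.06. DOT1L, the histone H3 lysine 79 methyltransferase, was at 382, 515 and 397 CPM with DMSO and 266, 278 and 336 CPM with MI-3454. The 2 groups did not overlap (log2 fold change -0.56 ± 0.15 SE, adjusted p = 0.0195), but the call was lost without MI-3454 1 (adjusted p = 0.0971) and without MI-3454 2 (0.079). CDK9, the kinase of the elongation factor P-TEFb, changed by -0.51 (adjusted p = 0.00615). MLLT10 changed by -0.37 (adjusted p = 0.0385), and its call was lost with scaling by total counts (0.0765) and without DMSO 1 (0.105), among other alternatives. EAF2, which binds the ELL elongation factors, was the 1 member of 16 called higher, with a log2 fold change of 0.54 (adjusted p = 0.0115). The 3 lower calls fell to 1 without MI-3454 1 and to 1 without MI-3454 2, and the higher calls rose to 2 without MI-3454 3. Without DMSO 2 and MI-3454 3 together 5 were called lower. MLLT3, the AF9 gene itself, was at 12.9, 7.97 and 10.3 CPM with DMSO and 10.2, 8.96 and 9.57 CPM with MI-3454, with overlapping groups.

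The HOXA genes, homeobox factors that sustain self-renewal in this leukaemia, fell over most of their cluster, whose stretch from HOXA3 to HOXA13 lies at chr7:27106184-27200106 (GRCh38). Of 10 tested members, 8 were called lower and none higher, by edgeR and DESeq2 alike, and the median log2 fold change was -0.93 (0.003 over all genes tested). HOXA9, the best known of them in leukaemia, was at 65.03, 59.99 and 62.2 CPM with DMSO and 37.9, 37.2 and 39.9 CPM with MI-3454. All 3 levels with MI-3454 lay below all 3 with DMSO, a fold of 1.63 (log2 fold change -0.70 ± 0.11 SE, adjusted p = 0.000837). The fall was larger from HOXA3 to HOXA6. HOXA6 was at 10, 13.1 and 11.7 CPM with DMSO and 2.01, 2.47 and 2.17 CPM with MI-3454, which is 5.19-fold lower (log2 fold change -2.38 ± 0.21 SE, adjusted p = 8.52e-06). HOXA3, HOXA4 and HOXA5 changed by -2.24, -2.33 and -2.11 on the log2 scale, whereas HOXA7, HOXA10 and HOXA11, named after their values were seen, changed by -0.90, -0.95 and -0.70. At the far end of the cluster, HOXA13 (log2 fold change -0.11, adjusted p = 0.772) was not called. HOXA2 had 15 counts over the 3 DMSO libraries and 1 over the 3 libraries with MI-3454 and was not tested. The annotated extents of HOXA3 and of HOXA9 overlap those of neighbouring HOXA genes, so counts of single members are uncertain.

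**Figure D2:**
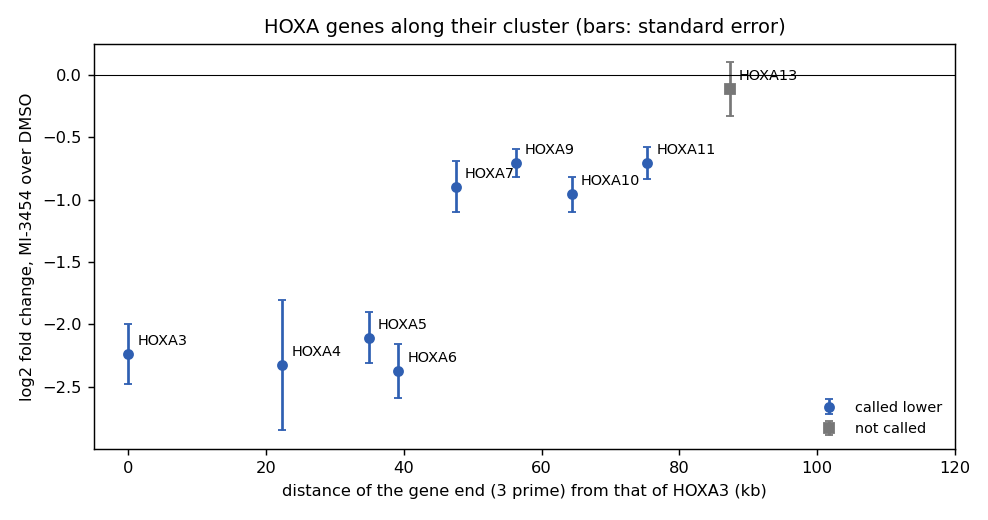
Log2 fold change (MI-3454 over DMSO, with its standard error) of 9 HOXA genes against the distance of the gene's end from that of HOXA3 in kb; round points were called lower and the square point was not called. HOXA3 to HOXA6 lie below -2, HOXA7 to HOXA11 lie between -0.95 and -0.70, and HOXA13 lies near 0.

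Outside the HOXA cluster, 16 of 27 tested targets of MLL fusions were called lower and 1 higher, with a median log2 fold change of -0.81. MEIS1, the homeobox cofactor that dimerizes with HOXA9, was at 68.1, 61.98 and 73.1 CPM with DMSO and 12.2, 11.4 and 9.35 CPM with MI-3454. That is a 6.16-fold lower level with no overlap (log2 fold change -2.62 ± 0.14 SE, adjusted p = 1.99e-07). DACH1, a transcriptional corepressor of the retinal determination network, had the largest fall of the list, from 227, 228 and 243 CPM with DMSO to 32.4, 35.2 and 31.5 CPM with MI-3454 (log2 fold change -2.81 ± 0.12 SE, adjusted p = 2.84e-08). MEF2C, a MADS-box factor of leukaemic stem cells, went from 386, 328 and 389.7 CPM with DMSO to 71.7, 77.1 and 68.3 CPM with MI-3454 (log2 fold change -2.35 ± 0.13 SE, adjusted p = 1.71e-07). PBX3, the third partner in HOXA9 and MEIS1 complexes, was at 131, 141 and 146 CPM with DMSO and 63.1, 62.2 and 64.6 CPM with MI-3454 (-1.14 on the log2 scale, adjusted p = 1.36e-05). The groups of all 4 genes were separated by more than the spread within either group.

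Not every known target fell. CCNA1, a cyclin of germ cells that is also expressed in myeloid leukaemia, was the 1 member called higher (2 without DMSO 2 and MI-3454 3), at 53.8, 45.2 and 42.5 CPM with DMSO and 229.9, 199 and 234 CPM with MI-3454 (log2 fold change 2.23 ± 0.13 SE, adjusted p = 3.2e-07). MYB, a transcription factor of progenitors, was at 521, 477 and 514 CPM with DMSO and 555, 558 and 508 CPM with MI-3454, with overlapping groups. Neither ZEB2 (log2 fold change -0.15, adjusted p = 0.408) nor LMO2 (0.22, adjusted p = 0.238) was called.

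The promoter of DACH1 is shown as that of the called fusion target with the largest change whose window holds the MEIS letters TGACAG. DACH1 was thus chosen for holding them, and the promoter of MEIS1 was added by name. Sequences are from RefSeq (GRCh38.p14), read in the direction of transcription over the 250 bases before the start, at chr2:66434875-66435124 (plus strand) for MEIS1 and chr13:71867205-71867454 (minus strand) for DACH1. Capitals mark the MEIS core TGACAG on either strand, which starts at position -5 in DACH1, with its last letter beyond the stretch shown, and is found at no position in MEIS1.
MEIS1: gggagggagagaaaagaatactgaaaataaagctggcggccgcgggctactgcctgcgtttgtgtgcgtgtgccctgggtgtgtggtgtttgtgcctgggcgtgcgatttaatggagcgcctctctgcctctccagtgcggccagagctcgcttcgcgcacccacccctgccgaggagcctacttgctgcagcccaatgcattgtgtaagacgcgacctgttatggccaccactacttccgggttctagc
DACH1: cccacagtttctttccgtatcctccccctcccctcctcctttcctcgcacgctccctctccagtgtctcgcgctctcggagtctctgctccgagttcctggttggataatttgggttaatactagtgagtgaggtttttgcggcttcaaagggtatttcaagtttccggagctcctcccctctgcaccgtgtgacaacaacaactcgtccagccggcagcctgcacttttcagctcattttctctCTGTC
Promoter windows in this search ran from 250 bases before to 50 after the start, and both strands were read. Of 9371 tested protein-coding genes with such a window, 13.02% held TGACAG, as did 2 of the 16 fusion targets called lower or higher that had a window. Matching letters describe the sequence and do not show that a factor binds there.

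FLT3, the receptor tyrosine kinase that is mutated in this line, is also on the list of fusion targets. Its level was 766, 610.3 and 717 CPM with DMSO and 248, 235 and 201 CPM with MI-3454. The lowest DMSO library was more than 2-fold above the highest with MI-3454, and the log2 fold change was -1.61 ± 0.14 SE, adjusted p = 4.86e-06. BCL2, the survival protein targeted by venetoclax, was at 398, 364 and 442 CPM with DMSO and 170.5, 164 and 156 CPM with MI-3454 (log2 fold change -1.30 ± 0.12 SE, adjusted p = 1.15e-05). CDK6, the kinase that pairs with D cyclins, was among the 8 called protein-coding genes that lost most CPM, from 787, 654 and 880.2 CPM with DMSO to 430.5, 457 and 354 CPM with MI-3454 (-0.90 on the log2 scale, adjusted p = 0.000905).

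**Figure D3:**
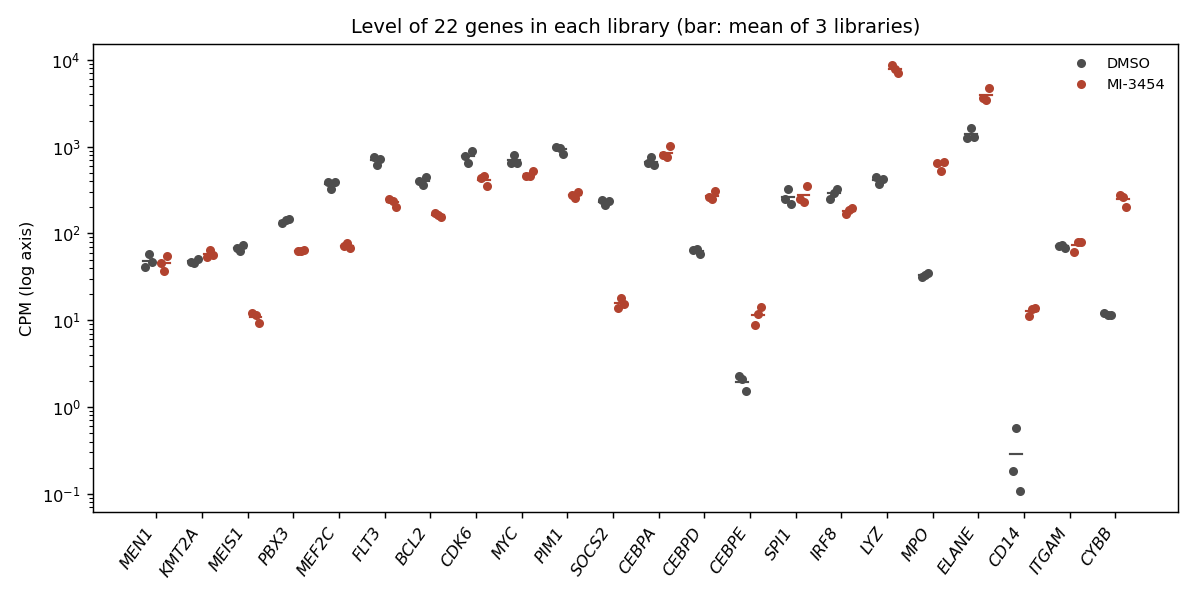
CPM (log axis) of 22 genes in each of the 3 DMSO libraries (grey) and 3 MI-3454 libraries (red), with the mean of each group as a bar. MEN1, SPI1 and ITGAM overlap between groups, MEIS1, MEF2C, FLT3, PIM1 and SOCS2 are lower with MI-3454, and LYZ, MPO, CD14 and CYBB are higher.

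Feedback inhibitors and kinases that STAT5 induces downstream of cytokine receptors and FLT3 were lower with MI-3454 in part. SOCS2, a feedback inhibitor of cytokine receptors, was at 243, 213 and 235 CPM with DMSO and 13.96, 18.2 and 15.6 CPM with MI-3454. This is a 14.5-fold lower level (log2 fold change -3.85 ± 0.14 SE, adjusted p = 9.01e-09). PIM1, a serine/threonine kinase induced by STAT5, went from 1003, 969.5 and 816 CPM with DMSO to 274, 253 and 299 CPM with MI-3454 (log2 fold change -1.76 ± 0.13 SE, adjusted p = 1.71e-06). CISH and SOCS1, 2 further feedback inhibitors, changed by -1.26 and -1.18 on the log2 scale (adjusted p = 7.28e-05 and 0.00533). These 4 were the only calls among 16 tested PIM, SOCS and STAT-related genes, and none was called higher by edgeR or DESeq2, while 1 had an unadjusted p under 0.05 and a rise. PIM2, PIM3, STAT5A, STAT5B and SOCS3 had log2 fold changes between -0.23 and 0.41 and were not called.

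Immediate-early and feedback genes downstream of MAP kinases, taken as 1 list, did not move in 1 direction. Of 23 tested, 4 were called lower and 4 higher, and the 4 higher calls became 2 without DMSO 1. EGR3 was at 22.8, 28.4 and 24.3 CPM with DMSO and 1.45, 1.65 and 2.28 CPM with MI-3454 (log2 fold change -3.80 ± 0.21 SE, adjusted p = 2e-07). JUND, an AP-1 subunit, lost more CPM than any other protein-coding gene called lower, from 1707, 1915 and 1530 CPM with DMSO to 626, 668 and 807 CPM with MI-3454 (log2 fold change -1.29 ± 0.14 SE, adjusted p = 3.51e-05). By contrast DUSP6, the phosphatase that inactivates ERK, rose from 22.4, 21.4 and 16.9 CPM with DMSO to 54.3, 47.6 and 44.4 CPM with MI-3454 (log2 fold change 1.26 ± 0.15 SE, adjusted p = 6.76e-05). Sprouty genes SPRY1, SPRY2 and SPRY4 were not called, with log2 fold changes of -0.03, 0.23 and 0.40.

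Among receptor tyrosine kinases, 5 of 15 tested were called lower and 3 higher. AXL, a receptor linked to resistance to FLT3 inhibitors, was at 32.02, 27.8 and 24.1 CPM with DMSO and 3.13, 7.93 and 6.20 CPM with MI-3454 (log2 fold change -2.27 ± 0.25 SE, adjusted p = 5.14e-05). The 3 higher calls, named here after their values were seen, were RET, IGF1R and CSF1R, and RET went from 27.1, 27.4 and 28.1 CPM with DMSO to 65.8, 72.8 and 77.1 CPM with MI-3454 (log2 fold change 1.38 ± 0.12 SE, adjusted p = 5.64e-06).

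The transcription factors of myeloid maturation rose unevenly. Of 29 tested, 13 were called higher and 4 lower, with a median log2 fold change of 0.49, but only 7 were called higher without DMSO 1. CEBPE, the factor of late granulocytic maturation, was at 2.27, 2.09 and 1.51 CPM with DMSO and 8.82, 11.9 and 14.02 CPM with MI-3454. It was 5.85-fold higher (log2 fold change 2.55 ± 0.25 SE, adjusted p = 1.88e-05). CEBPD went from 64.6, 65.7 and 58.4 CPM with DMSO to 266, 250 and 304 CPM with MI-3454 (log2 fold change 2.12 ± 0.13 SE, adjusted p = 2.99e-07), and BCL6, a repressor of the BTB zinc finger family, rose by 1.73 on the log2 scale (adjusted p = 6.98e-05).

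The factors that open the myeloid programme were already present with DMSO. CEBPA and SPI1 were not called with all 6 libraries. CEBPA was at 645, 763 and 609 CPM with DMSO and 792, 764 and 1005 CPM with MI-3454, with a log2 fold change of 0.34 ± 0.14 SE, adjusted p = 0.121. Without DMSO 2 it was called, at 0.45 on the log2 scale (adjusted p = 0.0435), and without DMSO 2 and MI-3454 3 at 0.31 (adjusted p = 0.0138). SPI1, which encodes PU.1, was at 247, 329 and 219.5 CPM with DMSO and 248, 229 and 356 CPM with MI-3454, and the groups overlapped. IRF8, a factor of monocytes and dendritic cells, fell from 248, 290.1 and 328 CPM with DMSO to 166, 186 and 196 CPM with MI-3454 (log2 fold change -0.66 ± 0.13 SE, adjusted p = 0.00428). EGR1, which is listed with the monocytic factors, changed by -1.20 (adjusted p = 0.005).

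Some factors of B cells and dendritic cells that this line expresses at low levels fell further. SPIB, an ETS factor related to PU.1, was at 26.1, 26.01 and 15.01 CPM with DMSO and 0.447, 1.24 and 0.435 CPM with MI-3454 (log2 fold change -4.95 ± 0.36 SE, adjusted p = 1.41e-06). BATF3, which specifies conventional dendritic cells, was at 3.91, 4.56 and 4.75 CPM with DMSO and 0.223, 0.103 and 0.109 CPM with MI-3454 (log2 fold change -4.82 ± 0.42 SE, adjusted p = 6.35e-06). IKZF3 and ZBTB46 also fell, with changes of -1.75 and -1.24 on the log2 scale, which makes 4 of 10 tested members called lower. TCF4, named after its values were seen, was the 1 member called higher. Its call was lost without DMSO 1, without DMSO 2, and without DMSO 2 and MI-3454 3 together, leaving 0 higher. BATF, IKZF1, IKZF2, BCL11A and RELB were not called.

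Most genes listed with azurophil (primary) granules, the protease and peroxidase stores made in promyelocytes, rose. The list also holds SERPINB10 and MS4A3, myeloid genes whose products are not granule stores. It further holds RNASE3, of eosinophil granules, its near-identical copy RNASE2, and NKG7, a gene of cytotoxic lymphocytes. RNASE2 and NKG7 are named after their values were seen. All 5 were called higher, so the counts below are not of azurophil granule genes alone. Of its 14 tested members, 12 were called higher and none lower by edgeR or DESeq2. None fell at an unadjusted p under 0.05, and the median log2 fold change was 1.35. LYZ, lysozyme, was at 446, 374 and 426 CPM with DMSO and 8661, 7847 and 7035 CPM with MI-3454. It gained more CPM than any other protein-coding gene called higher, and its level was 18.9-fold higher (log2 fold change 4.24 ± 0.14 SE, adjusted p = 7.74e-09). An antisense gene that overlaps LYZ was called higher too, and their reads may not be told apart. MPO, myeloperoxidase, went from 31.5, 33.2 and 35.3 CPM with DMSO to 641, 523 and 663 CPM with MI-3454 (log2 fold change 4.19 ± 0.15 SE, adjusted p = 7.74e-09). SERPINB10, a serpin of myeloid cells, went from 0.364, 0.570 and 0.864 CPM with DMSO to 77.7, 77.02 and 61.5 CPM with MI-3454 (log2 fold change 6.91 ± 0.24 SE, adjusted p = 7.74e-09). MS4A3, a marker of granulocyte-monocyte progenitors, was at 23.1, 19.9 and 20.96 CPM with DMSO and 153, 135 and 109.5 CPM with MI-3454 (log2 fold change 2.63 ± 0.15 SE, adjusted p = 2.11e-07).

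Serine proteases of the same granules were abundant in both groups. ELANE, neutrophil elastase, was at 1253, 1630 and 1293 CPM with DMSO and 3621, 3446 and 4700 CPM with MI-3454, which is 2.82-fold higher (adjusted p = 2.75e-05). AZU1, its neighbour on chromosome 19, was at 1276, 1704 and 1280 CPM with DMSO and 2982, 2836 and 4010 CPM with MI-3454 (log2 fold change 1.21 ± 0.17 SE, adjusted p = 0.00026). PRTN3, proteinase 3, was at 1882, 2942 and 1757 CPM with DMSO and 3779, 3204 and 5943 CPM with MI-3454, and its call (log2 fold change 0.97 ± 0.24 SE, adjusted p = 0.0128) ended without DMSO 1 (adjusted p = 0.0792) and without DMSO 3 (0.0526), and was not made by DESeq2 (0.0568). SRGN, the proteoglycan that packs the granule, changed by 0.60 on the log2 scale (adjusted p = 0.00569). The 2 members not called were CST7 (0.50) and CFD (0.48), whose groups overlapped.

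The promoter of MS4A3 is shown as that of the called member of the primary granule list with the largest change whose window holds the C/EBP letters TTNNGCAA. It lies at chr11:60056415-60056664 (plus strand), and capitals mark matches at positions -233 and -68.
MS4A3: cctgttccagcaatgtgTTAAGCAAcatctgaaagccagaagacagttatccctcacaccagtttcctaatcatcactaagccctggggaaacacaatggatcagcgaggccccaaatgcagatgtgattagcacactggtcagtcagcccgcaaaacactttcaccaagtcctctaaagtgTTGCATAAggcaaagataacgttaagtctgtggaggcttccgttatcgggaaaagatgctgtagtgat
Of the 7 called members of that list with a window, 5 held a match (AZU1, PRTN3, MS4A3, RNASE2 and RNASE3), against 7.12% of all 9371 promoters. Among the 140 promoters of genes called higher by at least 4-fold, 20 (14.3%) held one, and among 101 of genes called lower by at least 4-fold, 8 (7.92%) did. Without the 4-fold limit, the C/EBP letters were in 9.21% of 923 promoters of genes called higher and 6.62% of 891 called lower. PU.1 letters (GAGGAAGT) were found in 4.33% of the promoters of genes called higher, 2.58% of those called lower and 2.60% of all. With the 4-fold limit the PU.1 shares were 3.57% for genes called higher and 3.96% for genes called lower. These shares are descriptions of the windows, without a test.

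Products of specific and gelatinase granules, made later in neutrophil maturation, were also measured. All 7 members that were tested were called higher, but 14 of the 21 members of the list did not pass the filter on low counts. HP, haptoglobin, was at 0.273, 0.285 and 0.432 CPM with DMSO and 20.5, 18.5 and 20.98 CPM with MI-3454 (log2 fold change 5.89 ± 0.26 SE, adjusted p = 4.13e-08). BPI, a bactericidal protein, is on this list but is stored mainly in azurophil granules, so its rise does not describe the later granules. It was at 24.1, 28.8 and 23.7 CPM with DMSO and 327, 309.8 and 368 CPM with MI-3454 (log2 fold change 3.71 ± 0.14 SE, adjusted p = 1.15e-08). SLPI, a protease inhibitor of neutrophils, and MMP9, gelatinase B, rose by 4.46 and 4.07 on the log2 scale (adjusted p = 3.8e-05 and 0.00021). Of the members not tested, LTF, which encodes lactoferrin, had 0 counts with DMSO and 3 with MI-3454, CAMP had 3 and 24, and LCN2 and MMP8 had none in either group. S100A9 and S100A8, calcium-binding proteins of the neutrophil and monocyte cytosol, rose by 4.20 and 3.44 on the log2 scale to means of 9.74 and 8.57 CPM, and 3 of 8 tested S100 genes were called higher.

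Of 9 tested genes of the phagocyte NADPH oxidase, 2 were called higher and 1 lower, and 4 higher without DMSO 2 and MI-3454 3. CYBB, the catalytic gp91phox, was at 12.1, 11.5 and 11.6 CPM with DMSO and 277, 260.2 and 203 CPM with MI-3454, a 21.04-fold higher level (log2 fold change 4.39 ± 0.16 SE, adjusted p = 8.31e-09). CYBA, the partner of CYBB in the membrane, was at 298, 379.6 and 272 CPM with DMSO and 357, 344 and 509.5 CPM with MI-3454, with overlapping groups, and was not called (log2 fold change 0.35 ± 0.17 SE, adjusted p = 0.199). Neither was RAC2, the small GTPase of the complex, at 0.04 (adjusted p = 0.92). HVCN1, the proton channel that balances the charge of the oxidase, was lower, with a log2 fold change of -0.65 (adjusted p = 0.00266).

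Receptors for microbial products rose in 13 of 23 tested cases. CD14, the lipopolysaccharide coreceptor of monocytes, was at 0.182, 0.570 and 0.108 CPM with DMSO and 11.1, 13.5 and 13.7 CPM with MI-3454, with all 3 MI-3454 libraries far above the highest DMSO library. Its log2 fold change was 5.39 ± 0.35 SE, adjusted p = 6.62e-07. TLR4, its signalling partner, was at 16.5, 13.9 and 18.2 CPM with DMSO and 184, 165 and 126 CPM with MI-3454 (log2 fold change 3.29 ± 0.17 SE, adjusted p = 1.27e-07). TLR8, a receptor for single-stranded RNA, had 1 count with DMSO and 74 with MI-3454 (ratio 81.8, 95% counting interval 14.2 to 3270), and CLEC7A, the beta-glucan receptor dectin-1, rose by 3.47 on the log2 scale (adjusted p = 0.000125). LY96, the coreceptor that TLR4 needs to see lipopolysaccharide, had 9 counts with DMSO and 2 with MI-3454 and was not tested. MYD88, the shared adaptor, was not called (0.39, adjusted p = 0.068). The 3 lower calls became 1 without DMSO 2, without MI-3454 1 and without MI-3454 2.

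Opsonin receptors and chemoattractant receptors of phagocytes rose with them. CR1, the receptor for complement C3b, was at 0, 0.0949 and 0.324 CPM with DMSO and 15.4, 16.4 and 13.5 CPM with MI-3454 (log2 fold change 6.72 ± 0.40 SE, adjusted p = 3.2e-07). FCAR, the receptor for immunoglobulin A, was at 0.637, 0.759 and 1.30 CPM with DMSO and 26.5, 25.3 and 24.8 CPM with MI-3454 (log2 fold change 4.84 ± 0.23 SE, adjusted p = 7.43e-08). In all, 7 of 14 tested Fc and complement receptors were called higher and none lower by edgeR or DESeq2, with none lower at an unadjusted p under 0.05. FPR2, a formyl peptide receptor, had no count with DMSO and 34 with MI-3454, at least 12.5-fold higher. PTAFR, the receptor for platelet-activating factor, went from 4.28, 5.12 and 6.59 CPM with DMSO to 41.5, 40.2 and 40.2 CPM with MI-3454 (log2 fold change 2.94 ± 0.17 SE, adjusted p = 2.6e-07), and CCR2, the monocyte receptor for CCL2, from 62.03, 50.2 and 56.4 CPM with DMSO to 206, 171 and 152 CPM with MI-3454 (log2 fold change 1.65 ± 0.14 SE, adjusted p = 5.64e-06). Of 14 tested chemoattractant receptors, 10 were called higher and 1 lower.

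The integrins split. ITGB2, the shared beta chain CD18, was at 528, 627 and 484 CPM with DMSO and 1289, 1228 and 1643 CPM with MI-3454 (log2 fold change 1.34 ± 0.15 SE, adjusted p = 4.84e-05). Of its alpha partners, ITGAM (CD11b), a usual marker of myeloid differentiation, was at 72.1, 73.8 and 68.7 CPM with DMSO and 61.5, 79.4 and 78.9 CPM with MI-3454, with overlapping groups and a log2 fold change of 0.04 ± 0.13 SE, adjusted p = 0.889. ITGAL (CD11a) was lower, from 1586, 1638 and 1582 CPM with DMSO to 1060, 1113 and 1139 CPM with MI-3454 (log2 fold change -0.54 ± 0.11 SE, adjusted p = 0.00429). ICAM1, the ligand of both, fell from 46.5, 47.5 and 39.97 CPM with DMSO to 10.8, 9.27 and 12.7 CPM with MI-3454 (log2 fold change -2.03 ± 0.15 SE, adjusted p = 2.24e-06), and ITGA6 changed by -2.09 on the log2 scale (adjusted p = 7.52e-05). ITGAX (CD11c), named after its values were seen, rose, with a log2 fold change of 0.99 (adjusted p = 0.000334). In the adhesion list 6 of 18 tested genes were called higher and 4 lower.

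Inhibitory and activating receptors of the immunoglobulin and lectin families were higher in 14 of 18 tested cases, with a median log2 fold change of 1.57. CLEC12A, a surface marker of myeloid leukaemia, was at 1.18, 0.664 and 1.08 CPM with DMSO and 28.2, 35.8 and 19.2 CPM with MI-3454 (log2 fold change 4.82 ± 0.30 SE, adjusted p = 5.09e-07). PILRA went from 2.46, 3.99 and 3.13 CPM with DMSO to 15.7, 18.02 and 22.7 CPM with MI-3454 (log2 fold change 2.56 ± 0.22 SE, adjusted p = 6.54e-06), and LILRB3 and LILRA6 rose by 3.03 and 2.73 on the log2 scale, although these 2 near-identical genes may share reads. Among the rest, 1 was called lower, or 2 without MI-3454 3 alone and together with DMSO 2. LILRB4, an inhibitory receptor of monocytic leukaemia, was not called (-0.33, adjusted p = 0.236).

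Antigens used to type leukaemic cells changed in both directions. ANPEP (CD13) was at 1.36, 2.28 and 1.94 CPM with DMSO and 32.2, 40.3 and 48.9 CPM with MI-3454 (log2 fold change 4.44 ± 0.23 SE, adjusted p = 1.49e-07). CD36, a scavenger receptor of monocytes, was at 2.91, 2.09 and 5.40 CPM with DMSO and 48.9, 43.7 and 35.1 CPM with MI-3454 (log2 fold change 3.64 ± 0.27 SE, adjusted p = 1.49e-06). CSPG4 (NG2), the antigen that marks leukaemias with MLL rearrangement, was at 119.7, 152 and 95.8 CPM with DMSO and 9.27, 8.75 and 10.3 CPM with MI-3454, a 12.9-fold lower level (log2 fold change -3.69 ± 0.18 SE, adjusted p = 9.83e-08). Reads of CSPG4 and its pseudogene copies may not be told apart. Among 21 tested surface markers 12 were called higher and 3 lower, and 5 were called lower without MI-3454 3 alone and together with DMSO 2. CD34 and THY1 had no counts in either group.

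Cytokine receptors changed in both directions, and receptor chains best known from lymphocytes had the largest falls. IL2RA, the alpha chain of the interleukin-2 receptor, was at 58.9, 54.6 and 52.3 CPM with DMSO and 1.12, 1.03 and 1.09 CPM with MI-3454, a 50.7-fold lower level (log2 fold change -5.67 ± 0.18 SE, adjusted p = 7.02e-09). IL7R went from 30.4, 26.96 and 30.6 CPM with DMSO to 5.14, 4.84 and 2.94 CPM with MI-3454 (log2 fold change -2.76 ± 0.20 SE, adjusted p = 1.29e-06), and IL2RB and IL15RA changed by -3.18 and -2.04 on the log2 scale (adjusted p = 0.00236 and 1.05e-05). In all, 11 of 25 tested cytokine receptors were called higher and 5, FLT3 included, lower.

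Secreted mediators were divided, with 8 of 20 called higher and 6 lower. IL1B, an inflammatory cytokine, was at 0.546, 0.285 and 0.540 CPM with DMSO and 3.35, 2.68 and 4.67 CPM with MI-3454 (log2 fold change 2.93 ± 0.40 SE, adjusted p = 0.000225). CXCL8, the neutrophil chemoattractant, was at 3.55, 1.80 and 4.54 CPM with DMSO and 20.5, 25.02 and 15.4 CPM with MI-3454 (log2 fold change 2.63 ± 0.28 SE, adjusted p = 3.65e-05). OSM, oncostatin M, a target of STAT5, was at 20.1, 22.4 and 21.1 CPM with DMSO and 2.46, 2.99 and 3.91 CPM with MI-3454 (log2 fold change -2.76 ± 0.19 SE, adjusted p = 1.1e-06). IL1B and CXCL8 thus rose from low levels, but other inflammatory mediators fell. CCL2 and CCL5, chemokines named after their values were seen, were called lower. CCL4, a chemokine, changed by -2.47 (adjusted p = 0.0041), and has a near-identical copy that may share its reads. TNF was not called (0.22, adjusted p = 0.395).

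FGR, a SRC family kinase of mature myeloid cells, rose from 3.82, 3.89 and 3.35 CPM with DMSO to 32.8, 37.8 and 45.3 CPM with MI-3454 (log2 fold change 3.38 ± 0.18 SE, adjusted p = 1.67e-07). Its relative LYN was not called, at 0.19 on the log2 scale (adjusted p = 0.293). TEC and JAK3, kinases that act behind cytokine receptors, changed by -1.40 and -1.89 on the log2 scale (adjusted p = 2.16e-05 and 0.000668).

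Genes of antigen presentation went in opposite directions for the 2 classes of MHC. HLA-DRA, the alpha chain of HLA-DR, was at 30.8, 25.6 and 28.5 CPM with DMSO and 1.56, 0.927 and 1.09 CPM with MI-3454, a 23.6-fold lower level (log2 fold change -4.56 ± 0.22 SE, adjusted p = 7.37e-08). CIITA, the coactivator that class II genes require, was at 8.28, 8.64 and 7.13 CPM with DMSO and 2.35, 2.78 and 2.94 CPM with MI-3454 (log2 fold change -1.57 ± 0.21 SE, adjusted p = 0.000236). HLA-DRB1 and HLA-DMA changed by -4.61 and -1.04 on the log2 scale (adjusted p = 4.97e-06 and 0.00347), and 6 of 11 tested class II genes were called lower and none higher, with none higher by DESeq2 or at an unadjusted p under 0.05.

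Most class I genes were higher. NLRC5, the coactivator of class I, was at 43.3, 54.6 and 50.4 CPM with DMSO and 121, 134 and 131 CPM with MI-3454 (log2 fold change 1.38 ± 0.12 SE, adjusted p = 7.56e-06). HLA-B was at 699, 771 and 664 CPM with DMSO and 1531, 1350 and 1744 CPM with MI-3454 (log2 fold change 1.12 ± 0.13 SE, adjusted p = 7.24e-05). Of 17 tested class I genes 10 were called higher and none lower by edgeR or DESeq2, with none lower at an unadjusted p under 0.05, and 6 were called higher without DMSO 1 and without DMSO 3. HLA-F was called (log2 fold change 1.49, adjusted p = 0.0203), but not without DMSO 1 (0.0794) or without DMSO 3 (0.0678). Transporters TAP1 and TAP2 were not called. HLA genes are polymorphic and alike, so their counts depend on how reads were placed.

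The window of HLA-DRB1 is shown as the class II gene with the largest change whose promoter holds a CCAAT box, the letters CCAAT that are bound by NF-Y. It lies at chr6:32589849-32590098 (minus strand), with matches at -195 and, on the other strand, -46 in capitals.
HLA-DRB1: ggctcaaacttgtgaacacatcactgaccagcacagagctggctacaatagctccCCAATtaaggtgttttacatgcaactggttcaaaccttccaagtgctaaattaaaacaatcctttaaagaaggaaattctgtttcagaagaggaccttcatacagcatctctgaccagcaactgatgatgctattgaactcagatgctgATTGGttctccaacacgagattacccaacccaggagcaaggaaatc
All 4 called class II genes with a window held these letters, as did 37.3% of all promoters. The short motif is common, and its share was 35.1% among 891 promoters of genes called lower.

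Ligands that engage T cells were divided, with 6 of 15 called higher and 5 lower. CD80, a costimulator of the B7 family, was at 5.64, 5.03 and 7.13 CPM with DMSO and had no count in any MI-3454 library, at least 54.6-fold lower. CD276 (B7-H3) was at 11.8, 18.1 and 13.4 CPM with DMSO and 0.893, 0.515 and 1.30 CPM with MI-3454 (log2 fold change -3.99 ± 0.31 SE, adjusted p = 2.31e-06). ICOSLG went from 34.1, 35.4 and 31.1 CPM with DMSO to 9.71, 10.6 and 13.3 CPM with MI-3454 (log2 fold change -1.58 ± 0.15 SE, adjusted p = 1.72e-05), whereas TNFRSF14, the receptor that binds BTLA, rose from 9.64, 11.8 and 8.75 CPM with DMSO to 27.02, 28.9 and 30.98 CPM with MI-3454 (log2 fold change 1.52 ± 0.16 SE, adjusted p = 2.48e-05). CD274, which encodes PD-L1, had 1 and 4 counts and was not tested.

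**Figure D4:**
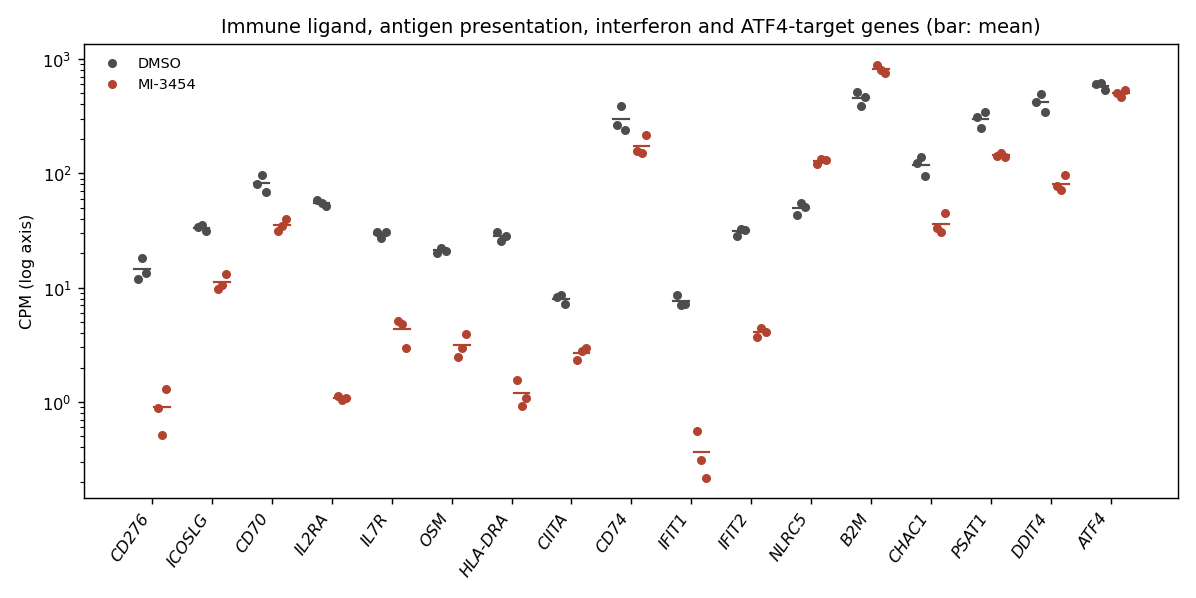
CPM (log axis) of 17 genes in each of the 3 DMSO libraries (grey) and 3 MI-3454 libraries (red), with group means as bars. The immune ligands, cytokine receptors, class II, IFIT and ATF4-target genes are lower with MI-3454, the class I genes are higher, and ATF4 itself was not called.

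A subset of interferon-stimulated genes fell, with 9 of 30 tested called lower and 3 higher, and 1 higher without DMSO 1, without DMSO 3 or without MI-3454 1. IFIT1, which binds foreign RNA, was at 8.64, 7.02 and 7.13 CPM with DMSO and 0.558, 0.309 and 0.217 CPM with MI-3454 (log2 fold change -4.36 ± 0.33 SE, adjusted p = 2.33e-06). IFIT2 was at 28.6, 32.8 and 31.9 CPM with DMSO and 3.68, 4.43 and 4.13 CPM with MI-3454 (log2 fold change -2.92 ± 0.16 SE, adjusted p = 2e-07). OAS2, which makes oligoadenylate, had 106 counts with DMSO and 2 with MI-3454 (ratio 48.0, 95% counting interval 13 to 401), and IFI44L, below the filter, had 28 and 0. Others were not called, among them BST2 and XAF1, with log2 fold changes of 0.04 and -0.07 (adjusted p = 0.896 and 0.75). Interferon regulatory factor genes IRF1, IRF3, IRF7 and IRF9 were not called.

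The promoter of IFIT1, the called interferon gene with the largest change whose window holds the interferon response letters GAAANNGAA, lies at chr10:89392373-89392622 (plus strand). Capitals mark the 2 matches, at -115 and -102, both read from the other strand.
IFIT1: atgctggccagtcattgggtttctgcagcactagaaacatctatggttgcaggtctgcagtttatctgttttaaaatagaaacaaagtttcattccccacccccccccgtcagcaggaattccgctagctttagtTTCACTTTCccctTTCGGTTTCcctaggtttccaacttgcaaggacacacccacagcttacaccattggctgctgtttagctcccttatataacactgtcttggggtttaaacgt
These letters were found in 5 of 7 called and 8 of 14 not called interferon-stimulated genes with a window, and in 6.74% of all promoters. The letters were present in genes called and in genes not called.

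Genes that ATF4 induces when amino acids are short were lower almost throughout. Of 23 tested, 18 were called lower and none higher by edgeR or DESeq2, with none higher at an unadjusted p under 0.05, and the median log2 fold change was -1.02. STC2, a secreted glycoprotein of the stress response, was at 37.8, 39.8 and 34.4 CPM with DMSO and 4.35, 7.41 and 5.33 CPM with MI-3454 (log2 fold change -2.70 ± 0.19 SE, adjusted p = 1.03e-06). DDIT4, an inhibitor of mTORC1, was at 417, 491 and 347 CPM with DMSO and 77.4, 70.95 and 95.99 CPM with MI-3454 (log2 fold change -2.36 ± 0.16 SE, adjusted p = 1.02e-06). CBS and CHAC1, enzymes of cysteine and glutathione metabolism, changed by -1.87 and -1.72 (adjusted p = 0.000225 and 2.4e-05). ATF4 RNA itself was at 604, 614 and 536 CPM with DMSO and 507, 467 and 534 CPM with MI-3454 and was not called (-0.22, adjusted p = 0.24).

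CHAC1 was chosen as the called ATF4 target with the largest change whose window holds the composite C/EBP-ATF letters TGATGNAA. Its promoter, at chr15:40953221-40953470 (plus strand), is shown with these letters in capitals, read from the other strand at -209.
CHAC1: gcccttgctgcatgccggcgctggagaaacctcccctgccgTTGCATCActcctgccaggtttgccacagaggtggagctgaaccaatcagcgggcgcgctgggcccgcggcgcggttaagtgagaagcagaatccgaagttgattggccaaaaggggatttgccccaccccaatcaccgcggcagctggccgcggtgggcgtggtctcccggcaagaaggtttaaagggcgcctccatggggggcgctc
This motif is rare: 3 of 15 called members with a window held it, against 1.72% of all promoters. Its share was 3.48% among genes called lower and 2.06% among genes called higher. Among genes changed by at least 4-fold it was 4.95% for those called lower and 5.0% for those called higher.

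Serine and one-carbon metabolism, whose list shares members with the ATF4 targets, had 7 of 17 genes called lower, among them PSPH and PSAT1, which make serine (-1.18 and -1.07 on the log2 scale, adjusted p = 3.15e-05 and 0.000137). The 1 higher call was lost without DMSO 1, DMSO 2, MI-3454 1 or MI-3454 2, leaving 0. Amino acid transporters were called lower in 6 of 19 cases and higher in 2. The higher calls numbered 4 by DESeq2 and with no filter on low counts, and 5 in the fit of all 12 libraries and without DMSO 2 and MI-3454 3. SLC7A5, the transporter of leucine, was at 947, 1110 and 943 CPM with DMSO and 420.4, 419.8 and 538 CPM with MI-3454 (log2 fold change -1.12 ± 0.14 SE, adjusted p = 0.000104). SLC6A9, a glycine transporter, changed by -2.45 on the log2 scale (adjusted p = 0.000327). Aminoacyl-tRNA synthetases were called lower in 12 of 20 cases, and in 7 without MI-3454 1, and WARS1, for tryptophan, changed most (from 299, 348 and 332 CPM with DMSO to 137, 152 and 158 CPM with MI-3454).

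MYC, the driver of ribosome production, was at 656, 799.7 and 649 CPM with DMSO and 461, 453 and 524 CPM with MI-3454 (log2 fold change -0.55 ± 0.13 SE, adjusted p = 0.0101). The groups did not overlap, but the call ended without MI-3454 1 (adjusted p = 0.0574) and without MI-3454 2 (0.0522). Ribosome biogenesis genes had small falls in 19 of 34 cases and no rise by edgeR or DESeq2 or at an unadjusted p under 0.05, and 7, 10 and 9 were called without DMSO 3, MI-3454 1 and MI-3454 2. DDX21, a helicase of the nucleolus, changed most among the calls (-0.72, adjusted p = 0.00601). Of the 4 MYC network genes called higher, MXD3, an antagonist of MYC, changed by 0.99 (adjusted p = 0.00269), and 2 were called higher without DMSO 1 or without MI-3454 1.

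Cell cycle genes were called in both directions. Among 25 tested cyclins and cell cycle inhibitors 6 were called higher and 6 lower, and 3 higher without DMSO 1, DMSO 3 or MI-3454 1. Of 34 DNA replication genes, 1 was called higher and 1 lower, and both calls were lost without DMSO 1, MI-3454 1 or MI-3454 2, while the higher call was lost without DMSO 2 and the lower without DMSO 3. Without DMSO 2 and MI-3454 3, 2 were called lower. Among 32 mitotic genes 6 were called higher, which fell to 3, 2 and 1 without DMSO 1, DMSO 3 and MI-3454 1. MKI67, the proliferation antigen, was at 291, 293 and 280.3 CPM with DMSO and 442, 401 and 496 CPM with MI-3454 (log2 fold change 0.63 ± 0.12 SE, adjusted p = 0.00292). CCND1, a D cyclin, and BTG2 changed by -2.80 and -1.34 on the log2 scale (adjusted p = 0.000304 and 1.89e-05), and BTG1, an antiproliferative gene of differentiating cells, rose from 70.8, 57.2 and 62.1 CPM with DMSO to 166, 161 and 146 CPM with MI-3454 (log2 fold change 1.31 ± 0.12 SE, adjusted p = 1.08e-05). Other BCL2 family genes than BCL2 included BCL2A1, higher by 1.41 (adjusted p = 0.00193), and MCL1, which was not called (-0.05).

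Lysosomal genes rose by small amounts in 23 of 36 cases, with a median log2 fold change of 0.56. GRN, progranulin, was at 535, 697 and 517 CPM with DMSO and 1145, 1134 and 1430 CPM with MI-3454 (log2 fold change 1.08 ± 0.15 SE, adjusted p = 0.000288), and CTSD, cathepsin D, at 52.1, 57.2 and 41.9 CPM with DMSO and 108, 107 and 135 CPM with MI-3454 (log2 fold change 1.21 ± 0.15 SE, adjusted p = 9.72e-05). CTSH was lower (-1.36, adjusted p = 3.21e-05), and the 2 lower calls became 1 without DMSO 1, DMSO 2, MI-3454 1 or MI-3454 2. FOXO targets were called higher in 12 of 22 cases and lower in 1. SESN3, a sestrin, was at 15.7, 10.1 and 11.4 CPM with DMSO and 113, 106 and 72.9 CPM with MI-3454 (log2 fold change 2.97 ± 0.20 SE, adjusted p = 1e-06). IRS2, the insulin receptor substrate, was at 69.9, 82.7 and 69.2 CPM with DMSO and 359.7, 376 and 458 CPM with MI-3454 (log2 fold change 2.43 ± 0.14 SE, adjusted p = 2.6e-07).

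Eicosanoid enzymes and protease inhibitors changed in both directions. CYP4F3, which inactivates leukotriene B4, was at 0.0910, 0.380 and 0.108 CPM with DMSO and 15.7, 14.3 and 14.8 CPM with MI-3454 (log2 fold change 6.17 ± 0.33 SE, adjusted p = 1.67e-07), and 8 of 16 eicosanoid genes were called higher and 3 lower. Without DMSO 1 the counts were 5 and 1, and without DMSO 3, MI-3454 1 or MI-3454 2 the lower count was also 1. SERPINA1, alpha-1 antitrypsin, was at 0.182, 0.190 and 0.108 CPM with DMSO and 9.38, 7.41 and 12.3 CPM with MI-3454 (log2 fold change 5.79 ± 0.39 SE, adjusted p = 8.64e-07). SERPINB2, which inhibits plasminogen activators, had 0 counts with DMSO and 42 with MI-3454, a rise of at least 15.5-fold. Of 18 serpins and other protease inhibitors, 9 were called higher and 5 lower, or 3 lower without MI-3454 1, with A2M at -4.77 on the log2 scale (adjusted p = 1.14e-05). ABCA1, the cholesterol exporter, rose from 26.6, 20.5 and 23.7 CPM with DMSO to 185, 229 and 179 CPM with MI-3454 (log2 fold change 3.06 ± 0.15 SE, adjusted p = 8.45e-08).

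Genes of mast cells, basophils and eosinophils divided. GATA2, their transcription factor, was lower, from 174, 199 and 144 CPM with DMSO to 89.4, 87.1 and 122 CPM with MI-3454 (log2 fold change -0.79 ± 0.16 SE, adjusted p = 0.00423), and TPSB2, a mast cell tryptase, changed by -1.55 (adjusted p = 0.00241). TPSAB1 is a near copy of TPSB2, and its call (log2 fold change -2.48, adjusted p = 0.0266) ended without DMSO 1, MI-3454 1 or MI-3454 2 (adjusted p = 0.112, 0.0825 and 0.0951). Of 6 tested genes 4 were called lower, and RNASE3 and PRG2 were called higher (2.13 and 2.01, adjusted p = 1.36e-06 and 0.00214). The tryptases and GATA2 thus fell, and the last gene called lower was EPX, eosinophil peroxidase, named after its values were seen. RNASE3 and PRG2, also of eosinophil granules, rose, so the eosinophil genes did not move in 1 direction. RNASE3 has a near-identical copy, RNASE2.

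Respiratory chain genes were not called. None of 35 nuclear genes of oxidative phosphorylation was called in either direction by edgeR or DESeq2, none had an unadjusted p under 0.05, and their log2 fold changes lay between -0.22 and 0.42. The chart of all lists shows how far the shares of called members departed from the shares over all genes tested.

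**Figure D5:**
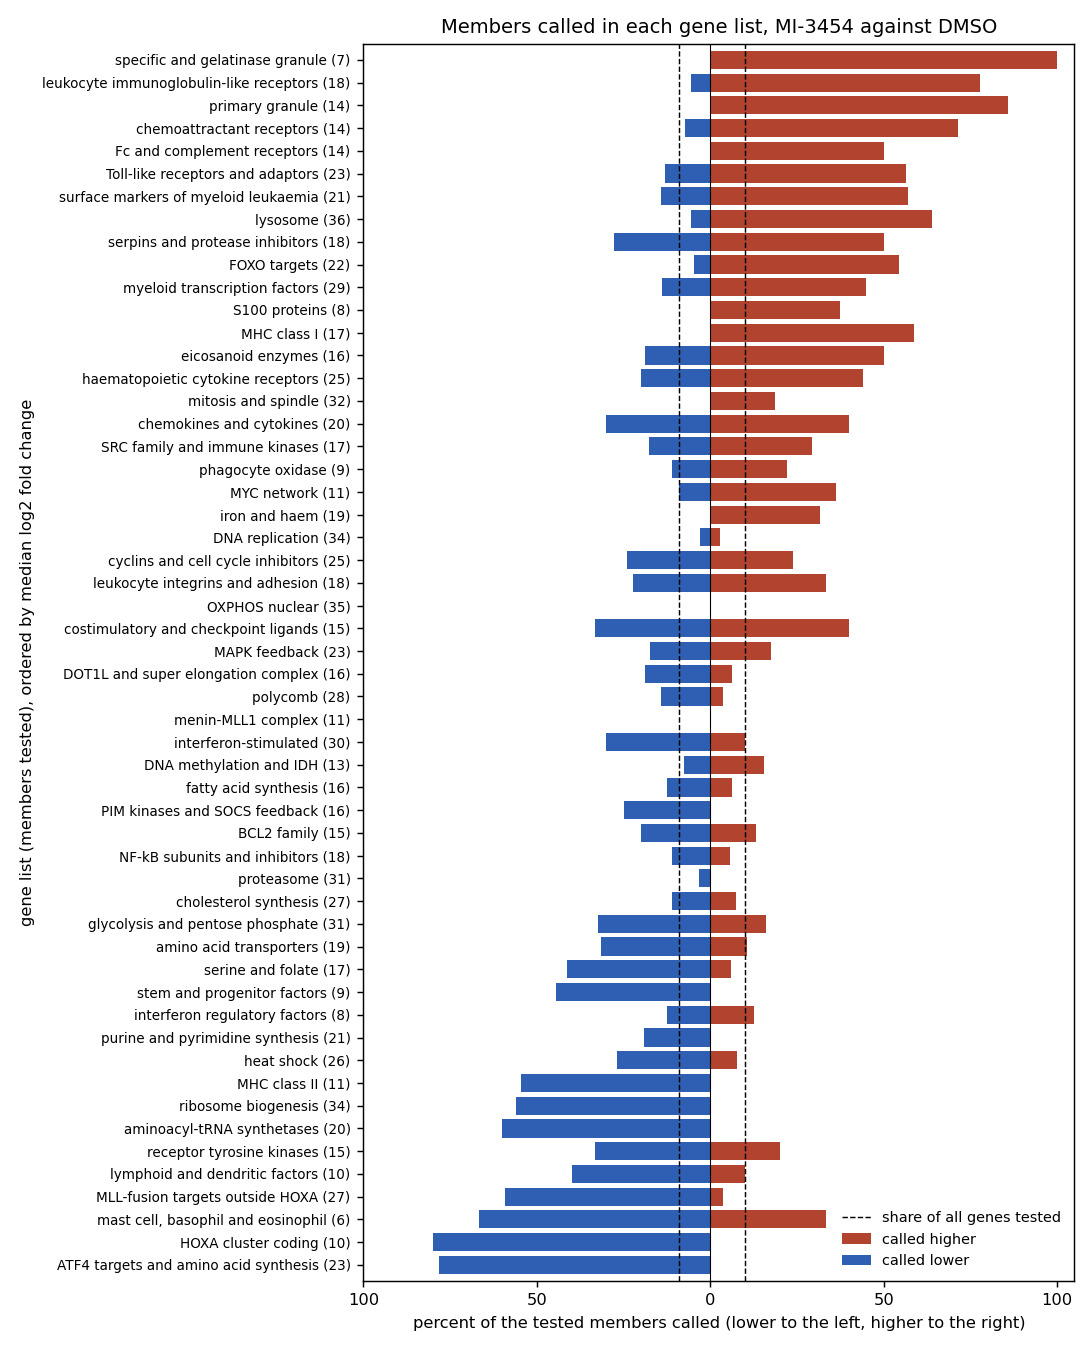
Percent of the tested members called higher (red, right) and lower (blue, left) in each gene list with at least 6 tested members, ordered by the median log2 fold change; dashed lines mark the shares over all genes tested (10.1% higher and 8.95% lower). Granule, phagocyte receptor, lysosome and MHC class I lists lie above, and HOXA, fusion-target, ATF4-target, class II, aminoacyl-tRNA synthetase and ribosome biogenesis lists below.

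Among single genes chosen by size alone, NAV3, a neuron navigator protein, had the largest rise among protein-coding genes at or above 5 CPM. It was at 0.546, 0.759 and 0.540 CPM with DMSO and 101, 95.04 and 91.4 CPM with MI-3454 (log2 fold change 7.25 ± 0.19 SE, adjusted p = 1.31e-09). PDE4B, a phosphodiesterase that degrades cyclic AMP, was at 0.637, 0.570 and 0 CPM with DMSO and 24.8, 21.1 and 17.6 CPM with MI-3454 (log2 fold change 5.61 ± 0.38 SE, adjusted p = 9.26e-07), and PRLR, the prolactin receptor, at 0.364, 0.190 and 0.216 CPM with DMSO and 10.6, 11.8 and 9.13 CPM with MI-3454 (log2 fold change 5.28 ± 0.32 SE, adjusted p = 3.39e-07). MNDA, a nuclear antigen of myeloid cells, and LRRK2, a kinase expressed in monocytes and neutrophils, rose by 4.88 and 4.52 on the log2 scale (adjusted p = 8.52e-09 and 6.11e-06).

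The largest falls were led by CD80 and by ALDH1A3, an aldehyde dehydrogenase that makes retinoic acid. ALDH1A3 was at 55.9, 61.98 and 72.05 CPM with DMSO and 0.112, 1.03 and 0.109 CPM with MI-3454 (log2 fold change -7.16 ± 0.36 SE, adjusted p = 9.79e-08). RHBDL3, a rhomboid-like protease, had 263 counts with DMSO and 2 with MI-3454 (ratio 119, 95% counting interval 32.6 to 988). ENPP2, autotaxin, lost the second most CPM, from 838, 757 and 822 CPM with DMSO to 74.5, 106 and 82.6 CPM with MI-3454 (log2 fold change -3.20 ± 0.15 SE, adjusted p = 7.61e-08). TOX, a factor of lymphocyte development, and PDGFA, a growth factor, changed by -4.30 and -4.25 on the log2 scale (adjusted p = 9.11e-07 and 2.6e-07). Levels of CD80, RHBDL3 and A2M with MI-3454 were at or near 0 counts, so their folds carry large counting error.

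Compared directly with gilteritinib, MI-3454 gave different levels for 2430 of 13972 genes (17.4%), 1392 higher and 1038 lower with MI-3454. The same 3 MI-3454 libraries enter this comparison and the one with DMSO. Without MI-3454 3 the calls numbered 4690 (2299 higher and 2391 lower), and without gilteritinib 1 they numbered 1588 (927 and 661). The lower calls also fell to 676, 613 and 640 without gilteritinib 2, MI-3454 1 and MI-3454 2. Counts within lists below are for all 6 libraries. Fusion targets were lower than with gilteritinib in 19 of 27 cases and HOXA genes in 9 of 10. MEIS1 was at 90.96, 95.8 and 91.8 CPM with gilteritinib (log2 difference -3.09 ± 0.12 SE, adjusted p = 4.15e-08). DACH1 was at 279, 311 and 274 CPM with gilteritinib (log2 difference -3.13 ± 0.11 SE, adjusted p = 2.64e-08). Both genes were thus lower with the menin inhibitor than with the FLT3 inhibitor in every library.

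Genes of myeloid maturation were also compared between the drugs. CD14 had 1 count over the 3 gilteritinib libraries and 356 over those with MI-3454 (ratio 374, 95% counting interval 66.7 to 14800). LYZ was at 739, 586 and 723 CPM with gilteritinib (log2 difference 3.51 ± 0.14 SE, adjusted p = 5.78e-08). CEBPE was at 6.61, 8.63 and 6.28 CPM with gilteritinib (log2 difference 0.69 ± 0.21 SE, adjusted p = 0.0389). AZU1 was at 2646, 3393 and 2593 CPM with gilteritinib and was not called different (0.18 ± 0.16 SE, adjusted p = 0.478).

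For genes induced by FLT3 signalling, no common direction was found. PIM1 was at 49.2, 47.8 and 54.3 CPM with gilteritinib, below every level with MI-3454 (log2 difference 2.44 ± 0.11 SE, adjusted p = 9.15e-08). SOCS2, by contrast, was at 129, 118 and 123 CPM with gilteritinib, above every level with MI-3454 (log2 difference -2.96 ± 0.12 SE, adjusted p = 4.15e-08). FLT3 itself was at 552, 477 and 533 CPM with gilteritinib, higher than with MI-3454 in every library (log2 difference -1.20 ± 0.12 SE, adjusted p = 2.56e-05). Replication genes were lower with MI-3454 than with gilteritinib in 17 of 34 cases, and ATF4 targets were higher in 11 of 23 cases and lower in 2. Over all 13972 genes in this comparison, 1392 were higher and 1038 lower.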

How the data were processed

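RNA from 12 cultures was sequenced, and the 9 libraries with DMSO, MI-3454 or gilteritinib alone were compared here. The authors deposited 1 file of raw counts per gene and library. Tools listed in the submitters' processing notes are STAR 2.7.1a, cutadapt 2.1, HTSeq 0.11.2 and DESeq2, with the build GRCh38. The strand setting and the annotation release were not given in the sources used here. The 5 summary rows of each file were left out. Reads outside any gene were 16.6% to 20.4% of uniquely placed reads with DMSO and 17.4% to 25.5% with MI-3454. Of 60668 gene identifiers, 60340 matched a symbol, and 58561 matched GENCODE 29, from which positions were taken.

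Genes were kept by filterByExpr over all 12 libraries (minimum count 10, minimum total 15), which left 13972 of 30849 genes with a count. Each comparison was fitted on its own 6 libraries with edgeR 4.0.16 (TMM normalization, quasi-likelihood F test) in R 4.3.3, and p-values were adjusted by Benjamini-Hochberg over all genes tested. A gene was called at an adjusted p under 0.05. CPM used the TMM factors, and standard errors were taken from the fold change and its F value. Folds against a group with 0 counts were taken against 3 counts per group as the floor, and ratios with 1 to 3 counts have exact 95% intervals that cover counting error only. The labels do not say that cultures came from separate days, so p-values measure the spread between these cultures, which may be technical. The code was tested on simulated data.

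Named genes were 17 set genes, the protein-coding genes with the 16 largest rises and falls (at least 5 CPM and no overlap) and the 8 largest gains and losses of CPM, the 6 largest noncoding rises and falls, and up to 4 called members of each list by size of change. Members that were not called could be named as well, and the text says where others were named after their values were seen. Some genes are not reported here. Members and lists were chosen with earlier results of these data known. Alternatives were other scalings, DESeq2 1.42.0, other filters, 1 fit of all 12 libraries, each library left out, a replicate block, and the RN7SL1-highest libraries left out.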

Additional observations from a re-analysis of the deposited data

How the results depend on the processing

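The count of genes changed by MI-3454 against DMSO was 1678 with the replicate number as a block (900 higher and 778 lower) and 1815 to 2961 with 1 library left out (935 to 1541 higher, 850 to 1420 lower). Without the RN7SL1-highest library of each group it was 3945, with 2019 lower, and higher calls made up 48.82% of them against 52.93%. Against gilteritinib, 1588 to 4690 genes differed with 1 library left out (927 to 2299 higher, 613 to 2391 lower), 1637 with the replicate block (646 lower), 5133 without the RN7SL1-highest libraries (2441 higher and 2692 lower), and 1647 were lower with no filter. Same-numbered DMSO and MI-3454 libraries deviated together at r = 0.20, -0.31 and -0.39, so the numbers were not taken to pair the cultures. The sign of the log2 fold change turned for 3 genes that were not called: ITGAM went from 0.035 to -0.027 without MI-3454 2, -0.023 without MI-3454 3 and -0.002 without the RN7SL1-highest libraries (-0.027 to 0.146 with 1 library left out), MEN1 from -0.08 to 0.072 without DMSO 2 and 0.06 without MI-3454 2 (-0.233 to 0.072), and SPI1 from 0.066 to -0.053 without DMSO 3 and -0.158 without MI-3454 3 (-0.158 to 0.254). Of 233 named genes, 39 changed their call or direction in at least 1 of 14 alternatives, and of 3259 pairs of gene and alternative, 3098 kept direction and call, 151 lost the call and 3 gained it. Of 1540 pairs of list count and alternative, 192 moved by over 1.5 times, among them ribosome biogenesis genes called lower (19 to 5) and mitotic genes called higher (6 to 1) under the block. The cause was not tested. Folds of genes near 0 counts are limited by depth.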

Other observations

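Noncoding transcripts changed in both directions. MIR124-1HG, the host transcript of a microRNA, was at 1.82, 1.71 and 2.48 CPM with DMSO and 18.4, 20.2 and 20.8 CPM with MI-3454 (log2 fold change 3.31 ± 0.20 SE, adjusted p = 3.39e-07). LINC02035 was at 1.27, 0.759 and 0.972 CPM with DMSO and 5.36, 6.90 and 6.41 CPM with MI-3454 (log2 fold change 2.62 ± 0.28 SE, adjusted p = 3.47e-05). Among the falls, SOCS2-AS1, which lies beside SOCS2, was at 16.7, 16.2 and 13.1 CPM with DMSO and 1.90, 1.75 and 1.41 CPM with MI-3454 (log2 fold change -3.18 ± 0.22 SE, adjusted p = 9.73e-07), and MBNL1-AS1 was at 12.6, 10.9 and 10.9 CPM with DMSO and 2.01, 1.24 and 2.28 CPM with MI-3454 (log2 fold change -2.64 ± 0.24 SE, adjusted p = 9.04e-06). ITGB2-AS1, antisense to ITGB2, was higher by 2.58 on the log2 scale (adjusted p = 9.78e-06). The strand setting of the counting is not given in the sources used here, so reads of an antisense gene and its partner may not be told apart.

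Enzymes of carbohydrate metabolism were divided. HK3, the hexokinase of myeloid cells, was at 1.00, 2.09 and 1.30 CPM with DMSO and 10.5, 7.41 and 11.7 CPM with MI-3454 (log2 fold change 2.74 ± 0.29 SE, adjusted p = 3.69e-05). SLC2A6, a hexose transporter of leukocytes, went from 5.28, 3.99 and 5.08 CPM with DMSO to 18.2, 20.1 and 24.5 CPM with MI-3454 (log2 fold change 2.13 ± 0.19 SE, adjusted p = 7.3e-06). Of 31 tested genes 5 were called higher and 10 lower. Without DMSO 1 or DMSO 3 the higher calls numbered 3, and without MI-3454 2 the lower calls numbered 6. TET2, which oxidizes methylcytosine, was higher (0.84 on the log2 scale, adjusted p = 0.000346), and DNMT3B, a DNA methyltransferase, was lower (-0.85, adjusted p = 0.00139).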
